A study of Homo sapiens with 4 samples.

Results

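The genes described here are 10 chemokines made by epithelial cells: CXCL1, CXCL2, CXCL3, CXCL5, CXCL6 and CXCL8, which attract neutrophils, and CXCL14, CXCL16, CCL20 and CCL28, which act in mucosa and skin on other leukocytes. They were taken by gene symbol, and all 10 had a probe set of their own among the 18132 genes that could be named. Together they had 23 of the 49293 probe sets tested. They were proposed with results of the same comparison in view, so the changes given below describe these arrays and are not independent evidence of a response of chemokines as a class. OE33, an established cell line from an adenocarcinoma of the human oesophagus, was transfected with the ON-TARGETplus SMARTpool against ARID1A (called knockdown here) or with the ON-TARGETplus Non-targeting Pool (called mock). The protein of ARID1A belongs to SWI/SNF, a complex that slides or evicts nucleosomes, and the series set out to find what lies downstream of its loss. Both groups received Lipofectamine and 50 nM siRNA 24 hours after plating, grew in medium with 15% serum, and were harvested 48 hours after transfection. Each group held 2 biological replicates, each measured on 1 Affymetrix PrimeView array, so the 4 arrays describe 1 cell line after a short and partial knockdown.

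Chemokines are small secreted proteins that guide leukocytes through G protein-coupled receptors. Those with a glutamate-leucine-arginine motif before the first cysteines (CXCL1, CXCL2, CXCL3, CXCL5, CXCL6 and CXCL8) bind CXCR2, and CXCL6 and CXCL8 also bind CXCR1, the receptors that draw neutrophils into inflamed epithelium. Epithelial and carcinoma cells transcribe many of these genes through NF-kB after interleukin-1, interleukin-17 or tumour necrosis factor, and their short-lived mRNAs are also controlled by decay factors of the ZFP36 family.

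The 6 neutrophil chemokine genes lie on chromosome 4, and the sequences just before their start sites are shown because all 6 share a 9-base stretch of NF-kB type. The windows below are the 100 bases that end at the base before the RefSeq start site (GRCh38.p14), written 5′ to 3′ on the gene's strand, and the capitals mark GGAATTTCC.
CXCL1, chr4:73869293-73869392, plus strand: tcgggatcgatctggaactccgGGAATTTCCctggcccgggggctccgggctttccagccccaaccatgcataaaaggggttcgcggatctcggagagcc
CXCL2, chr4:74099196-74099295, minus strand: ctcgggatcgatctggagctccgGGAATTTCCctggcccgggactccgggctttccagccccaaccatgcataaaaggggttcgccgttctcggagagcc
CXCL3, chr4:74038690-74038789, minus strand: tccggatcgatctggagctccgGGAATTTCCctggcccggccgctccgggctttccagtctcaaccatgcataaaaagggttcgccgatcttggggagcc
CXCL8, chr4:73740469-73740568, plus strand: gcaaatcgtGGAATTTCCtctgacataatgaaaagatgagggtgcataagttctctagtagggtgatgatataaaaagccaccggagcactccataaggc
CXCL5, chr4:73998678-73998777, minus strand: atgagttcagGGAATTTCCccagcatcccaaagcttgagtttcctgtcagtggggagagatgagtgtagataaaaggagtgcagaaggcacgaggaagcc
CXCL6, chr4:73836578-73836677, plus strand: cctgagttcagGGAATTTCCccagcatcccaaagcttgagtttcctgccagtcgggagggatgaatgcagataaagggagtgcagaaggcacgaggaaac

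The stretch begins 77 to 91 bases before the start site in these genes, at -78 in CXCL1, -77 in CXCL2, -78 in CXCL3, -90 in CXCL5, -89 in CXCL6 and -91 in CXCL8. Searched on both strands, GGAATTTCC occurred in 162 of 35116 RefSeq promoter windows of 300 bases (0.461%). The kappaB consensus, a looser motif that overlaps it, occurred in 11.3% of windows. It matched CXCL1, CXCL2, CXCL3, CXCL5, CXCL6 and, at another sequence, CCL20. CXCL8 matched the shorter stretch but not that consensus. The AP-1 motif TGANTCA, present in 7.71% of windows, matched CXCL8 and CXCL14, and neither of the 2 windows of CCL28 held any of these motifs. CXCL16 had no window and was not searched. A match is a stretch of letters and not a measured binding site. The windows also show how alike the paralogues are. CXCL1 and CXCL2 shared 95 of 100 bases when aligned, CXCL1 and CXCL3 shared 90, and CXCL5 and CXCL6 shared 91, while CXCL1 and CXCL8 shared 48.

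The labels were checked first. All 8 epithelial markers measured, among them EPCAM, CDH1 and KRT19, had log2 levels of 11.2 to 14.6, while the 11 leukocyte markers lay between 3.03 and 7.15 and the 10 fibroblast and endothelial markers between 2.72 and 6.15. ARID1A, at its brightest probe set, had log2 levels of 7.53 and 7.53 in the knockdown arrays, against 9.28 and 9.33 in the mock arrays. This was a 3.43-fold lower signal (log2 change -1.78, limma adjusted p = 0.0218). Its other probe sets differed in size of change. Changes of -1.61, -1.39 and -1.37 had a limma adjusted p under 0.05, and changes of -0.36 and 0.11 did not. Since RMA tables carry no detection call, the 359 probe sets of olfactory receptor genes, which an oesophageal line is not known to express, served as a yardstick of background, and their 95th percentile was a log2 level of 5.67. The 3′ minus 5′ difference of the beta-actin control, a measure of RNA integrity, stood at 1.21 and 1.10 for knockdown and at 1.04 and 0.995 for mock, and its part in the changes below was not tested. For GAPDH it was 0.201 and 0.215 in knockdown and 0.199 and 0.211 in mock.

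The chemokines fell into a bright and a dim set. CXCL1, CXCL2, CXCL3, CXCL8, CXCL16 and CCL28, 6 of the 10 genes, lay above it at their brightest probe set. CXCL5, CXCL6, CXCL14 and CCL20 lay below it. Of all 18132 genes, 11145 lay above, so this split is not particular to the chemokines. By probe set, 13 were above and 10 at or below, and of all 49293 probe sets 26270 were above. The second probe set of CCL28 was among the 13 only through its knockdown arrays. At its brightest probe set, CCL28 was close to the line of 5.67 in mock (5.85 and 5.75). Signals of different probe sets depend on their probes, so the genes are not ranked against each other by level. In a bulk culture, a change in the share of cells that express a gene and a change per cell cannot be told apart.

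**Figure D1:**
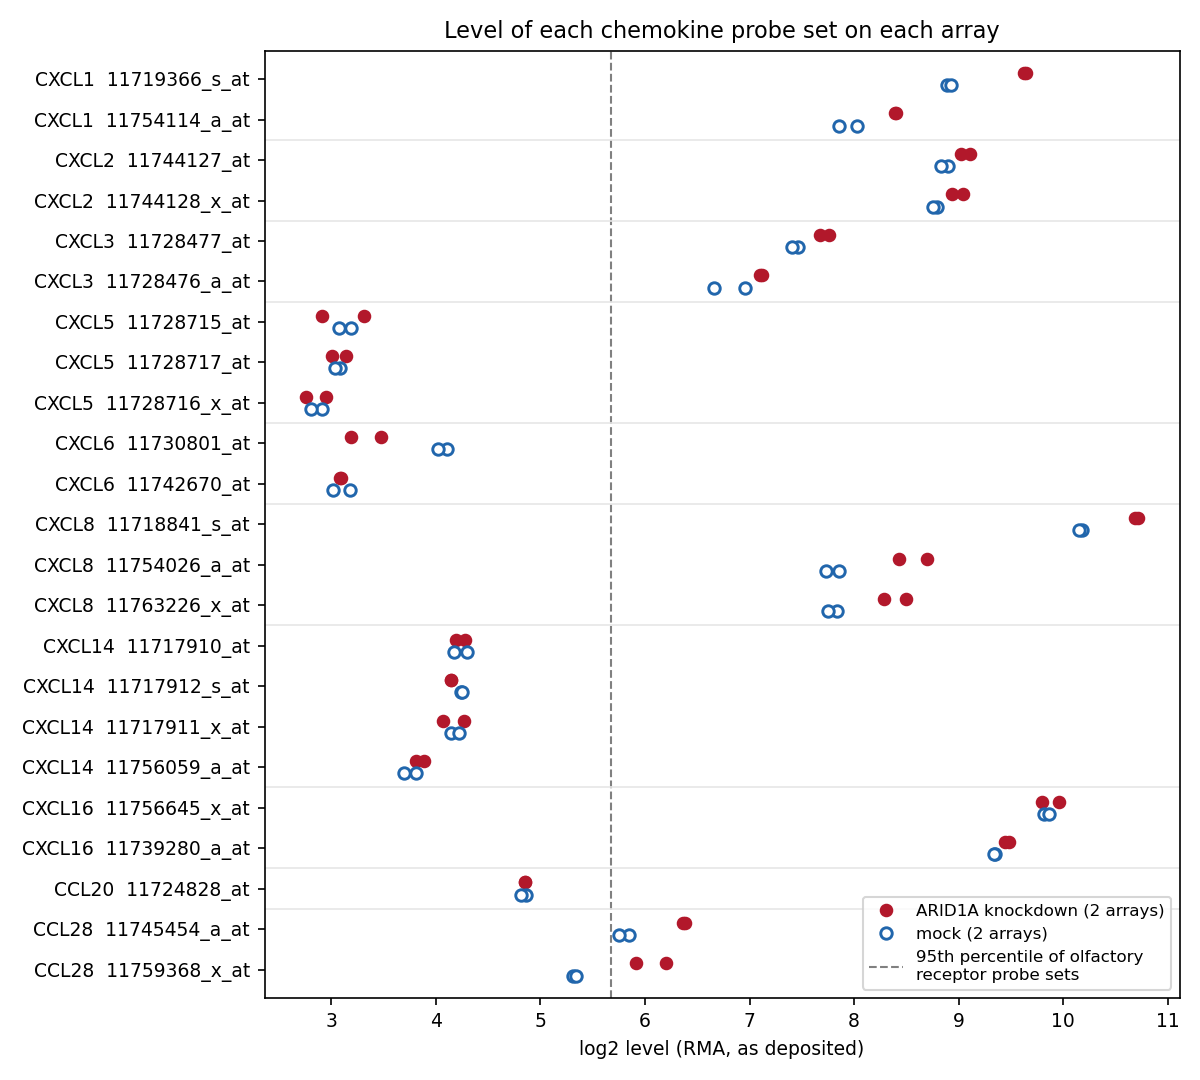
Log2 level of each of the 23 chemokine probe sets (rows, grouped by gene) on each array, with knockdown arrays as filled and mock arrays as open circles; the dashed line at 5.67 is the 95th percentile of olfactory receptor probe sets. The knockdown points lie to the right of both mock points at every probe set of CXCL1, CXCL2, CXCL3, CXCL8 and CCL28, an order that 24.2% of all probe sets had.

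CXCL1, which acts through CXCR2 and was first known as a melanoma growth factor, rose in the knockdown cells. Its brightest probe set, 11719366_s_at, had log2 levels of 9.64 and 9.62 in the knockdown arrays, against 8.88 and 8.93 in the mock arrays. Both knockdown arrays lay above both mock arrays, an order that 24.2% of all probe sets had. The gap between the groups was many times the distance between replicates. The signal was 1.66-fold higher (log2 change 0.73, 95% confidence interval 0.55 to 0.90, limma adjusted p over all probe sets = 0.0444). It was the 1 member probe set of 23 past the adjusted threshold of 0.05, which 0.316% of all probe sets passed, 0.15% of them as higher. Its suffix, _s_at, warns that the probes may also hybridise to related genes, and CXCL2 and CXCL3 are close relatives. The second probe set of CXCL1, 11754114_a_at, carries no such mark and had 8.40 and 8.39 in knockdown, against 8.02 and 7.85 in mock. Here too the groups were apart, with a smaller change of 0.46 that did not pass (adjusted p = 0.111). The call was lost in a fit without such marked probe sets (limma adjusted p = 0.128 at the second probe set), with a replicate block (0.255) and with any 1 array left out (0.261 to 0.521, log2 change 0.71 to 0.75). In the last 2 settings no probe set of the array passed, so that ARID1A lost its call too.

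CXCL8 (interleukin-8), the main human neutrophil attractant, was higher on every knockdown array than on either mock array at all 3 of its probe sets, an order that 24.2% of all probe sets had, without passing the test. The brightest, 11718841_s_at, had 10.68 and 10.71 in knockdown, against 10.17 and 10.15 in mock. This was 1.45-fold higher (log2 change 0.54, 95% confidence interval 0.36 to 0.71, adjusted p = 0.0630). The probe set 11754026_a_at had 8.43 and 8.69 in knockdown, against 7.85 and 7.73 in mock, a log2 change of 0.77 (0.49 to 1.05, adjusted p = 0.0700). The third, 11763226_x_at, had a change of 0.60 (adjusted p = 0.0830) and was designed on the same transcript as the second, so these are not separate measurements. The change of CXCL8 ran from 0.54 to 0.77 across its probe sets and its adjusted p-values from 0.0630 to 0.0830. By limma adjusted p, CXCL8 passed with each array centred on its median (0.0307), with a filter on dim probe sets (0.0107) and with an intensity trend (0.000242). It did not pass after quantile normalization (0.0528), with unshared probe sets (0.0786), with a replicate block (0.284) or with any 1 array left out (0.277 to 0.521).

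CXCL2 and CXCL3, which share CXCR2 with CXCL1, differed less. CXCL2 had 9.11 and 9.02 in knockdown, against 8.90 and 8.83 in mock, at 11744127_at. This is a log2 change of 0.20 (0.010 to 0.40, adjusted p = 0.288). CXCL3 had 7.67 and 7.76 in knockdown, against 7.46 and 7.40 in mock, at 11728477_at, a log2 change of 0.28 (0.094 to 0.48, adjusted p = 0.182). Both genes had knockdown arrays above both mock arrays, an order that 24.2% of all probe sets had. For CXCL2 the margin was not much larger than the distance between replicates. Each gene has a second probe set designed on the same transcript as the first, with changes of 0.21 for CXCL2 and 0.30 for CXCL3. That of CXCL3 had 7.12 and 7.10 in knockdown, against 6.96 and 6.66 in mock. There the gap between the groups was smaller than the distance between the mock replicates. Differences between these genes were not tested.

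CXCL5 and CXCL6, the remaining neutrophil attractants, were dim. CXCL5 had 2.91 and 3.31 in knockdown, against 3.19 and 3.07 in mock, at its brightest probe set. These levels overlap and lie at the 8.08th percentile of the olfactory receptor probe sets, and the changes at its 3 probe sets ran from -0.019 to 0.015. CXCL6 had 3.19 and 3.48 in knockdown, against 4.11 and 4.03 in mock, at 11730801_at. Both knockdown arrays lay below both mock arrays, an order that 22.5% of all probe sets had. The log2 change was -0.73 (95% confidence interval -1.02 to -0.45, limma adjusted p = 0.0778), opposite in sign to CXCL1 and CXCL8. By limma adjusted p it passed as lower with each array centred on its median (0.0307) and with an intensity trend (0.00816), and not after quantile normalization (0.0900), with unshared probe sets (0.0870), with a replicate block (0.287) or with any 1 array left out (0.277 to 0.521). That level is within the range of the olfactory receptors, at the 30.6th percentile of them. The second CXCL6 probe set had 3.10 and 3.08 in knockdown, against 3.18 and 3.02 in mock, with a change of -0.0084. The transcript it was designed on is not among the RefSeq transcripts of CXCL6, though the platform annotation pairs it with that gene.

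CCL28 is a mucosal chemokine that brings antibody-secreting cells to epithelia through CCR10 and eosinophils through CCR3. It was higher on both knockdown arrays at both of its probe sets, an order that 24.2% of all probe sets had, without passing the test. At 11745454_a_at it had 6.36 and 6.38 in knockdown, against 5.85 and 5.75 in mock. The difference amounted to 1.49-fold (log2 change 0.57, 95% confidence interval 0.38 to 0.76, adjusted p = 0.0633). At 11759368_x_at it had 5.92 and 6.20 in knockdown, against 5.31 and 5.34 in mock, a change of 0.73 (0.46 to 1.01, adjusted p = 0.0754). The 2 probe sets were designed on different transcripts, and both changes were positive. The suffix of the second, _x_at, warns that its probes may also hybridise to other genes. At the second, the mock arrays lay below the olfactory receptor 95th percentile and the knockdown arrays above it. With a filter on dim probe sets, the first had a limma adjusted p of 0.0116. Its mock levels lay below that filter's cut of 5.90, so it was kept only through its knockdown arrays. It passed with each array centred on its median (limma adjusted p = 0.0304) and with an intensity trend (0.0122). It did not pass after quantile normalization (0.0621), with unshared probe sets (0.0768), with a replicate block (0.284) or with any 1 array left out (0.277 to 0.521).

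CXCL16, a membrane-bound ligand of CXCR6 that is also shed as a soluble attractant, was bright in both groups. At 11756645_x_at it had 9.96 and 9.79 in knockdown, against 9.82 and 9.87 in mock, and the groups overlapped (log2 change 0.034, -0.18 to 0.25). At 11739280_a_at it had 9.48 and 9.44 in knockdown, against 9.35 and 9.33 in mock, a change of 0.12 with an interval of -0.058 to 0.30. These intervals leave room for a change of about the size seen for CXCL2.

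CCL20, the ligand of CCR6 that attracts dendritic cells and T helper 17 cells, had a single probe set. It had 4.86 and 4.85 in knockdown, against 4.86 and 4.82 in mock (log2 change 0.015, -0.16 to 0.19). CXCL14, a chemokine of normal epithelia without the neutrophil motif, had 4.20 and 4.28 in knockdown, against 4.17 and 4.30 in mock, at its brightest probe set. Over its 4 probe sets the changes ran from -0.099 to 0.095, and none had an unadjusted p under 0.05. Both genes lay within the range of the olfactory receptors, CCL20 at their 80.5th percentile and CXCL14 at the 59.3rd.

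Over the 23 probe sets, an unadjusted p under 0.05 was reached by 11 as higher and 1 as lower, shares that in all probe sets were 9.1% and 7.07%. In 12 of the 23, both knockdown arrays lay above both mock arrays, and in 2 they lay below, against 24.2% and 22.5% of all probe sets. Because the genes were proposed with these results known, nothing is read from these counts. At the brightest probe set of each gene the median log2 change was 0.12 over the 10 genes and -0.0043 over all 18132 genes. There, an unadjusted p under 0.05 was reached by 5 of the 10 as higher and 1 as lower (9.76% and 7.25% of all genes).

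**Figure D2:**
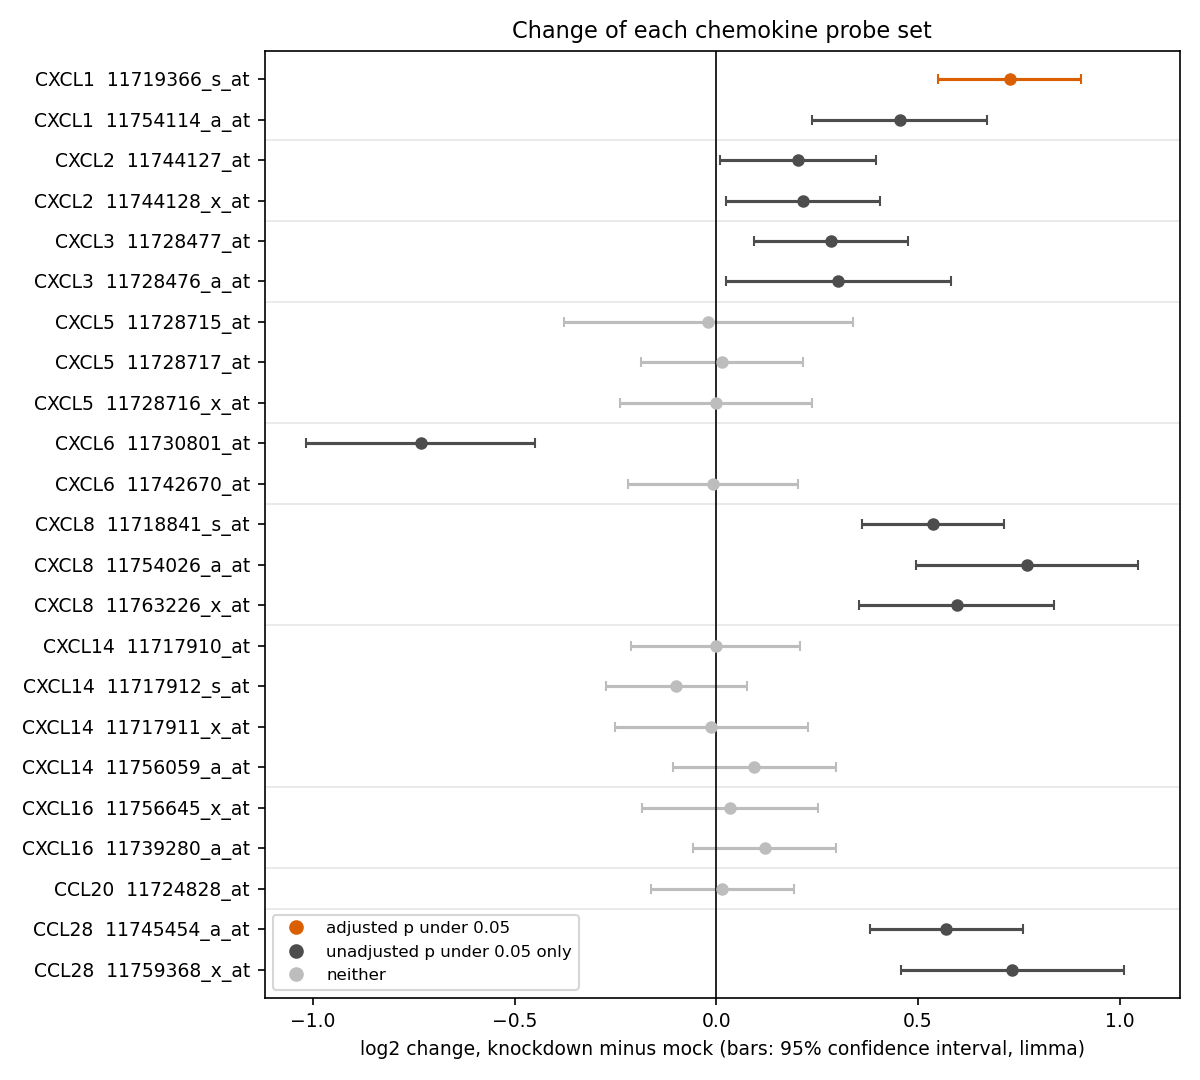
Log2 change, knockdown minus mock, of each chemokine probe set (rows) with its 95% confidence interval from limma, coloured by whether the adjusted p, only the unadjusted p, or neither was under 0.05. CXCL1 at 0.73 is the single probe set past the adjusted threshold, and CXCL6 at -0.73 is the one with an interval wholly below 0.

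The neutrophil chemokines stand next to each other on chromosome 4, where RefSeq gives the order CXCL8, CXCL6, PF4V1, CXCL1, PF4, PPBP, CXCL5, CXCL3, CXCL2. The genes with the larger positive changes, CXCL8 and CXCL1, are not neighbours, while CXCL3 and CXCL2 are. CXCL8 and CXCL1 are separated by CXCL6, with its negative change, and by PF4V1 (log2 change 0.035). The platelet chemokine genes PF4 and PPBP, between CXCL1 and CXCL5, had changes of -0.028 and 0.076. Among the flanking genes, RASSF6, before CXCL8, had a change of 0.17, and MTHFD2L, after CXCL2, one of 0.25 (adjusted p = 0.297). EREG, an epidermal growth factor receptor ligand further along, had log2 levels of 12.1 and 12.2 in knockdown, against 12.5 and 12.5 in mock, a change of -0.35 (adjusted p = 0.129).

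**Figure D3:**
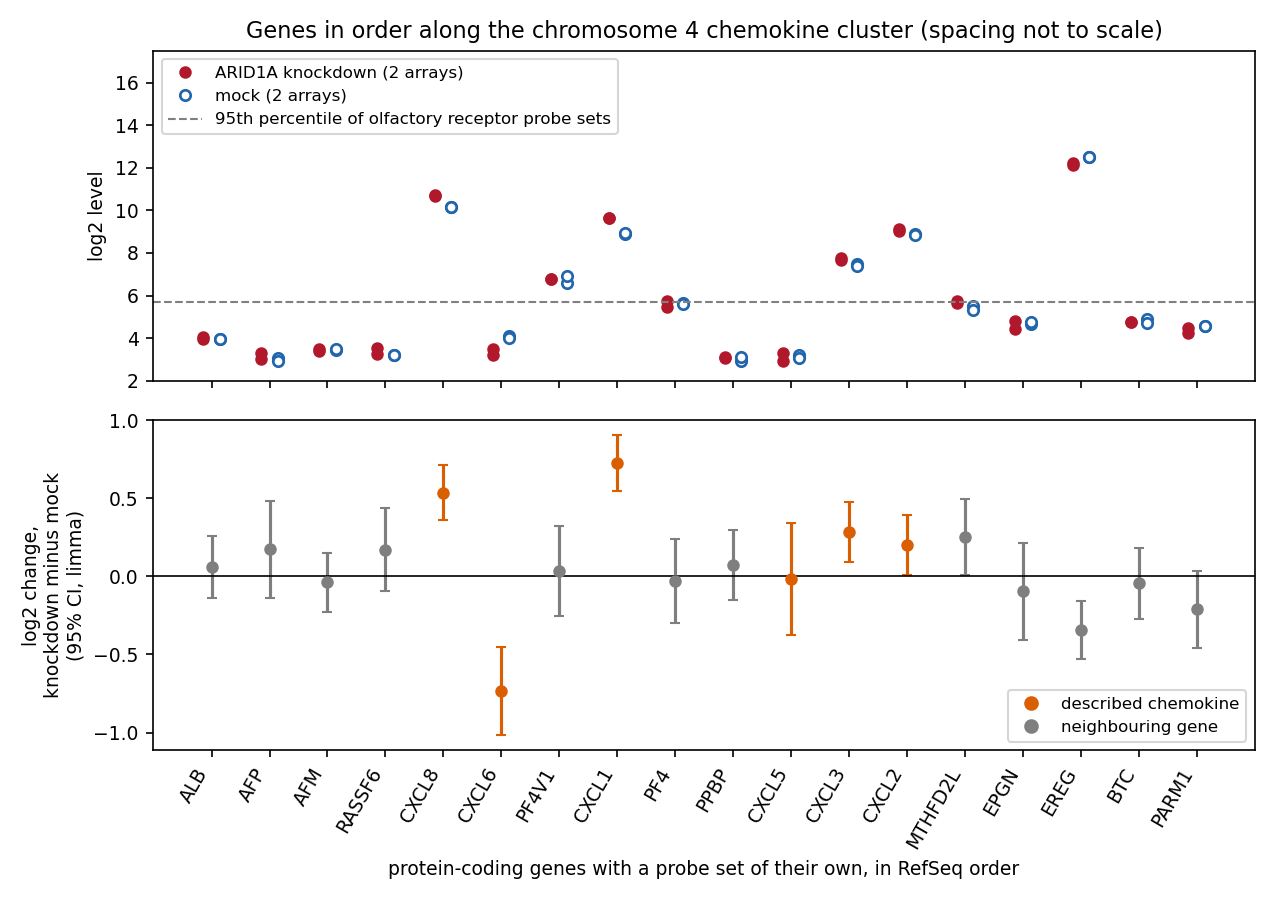
Protein-coding genes in their RefSeq order along the chromosome 4 chemokine cluster (x axis, not to scale), with the log2 level on each array (top) and the log2 change with its 95% confidence interval (bottom). CXCL8, CXCL1, CXCL3 and CXCL2 lie above the olfactory receptor line at 5.67 and have positive changes. PF4V1, between CXCL8 and CXCL1, also lies above the line on each array, with a change of 0.035, while CXCL6 and CXCL5 lie below it.

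The receptors of these chemokines were mostly dim. Of 11 listed, 10 were measured, at log2 levels of 3.72 to 6.62, and 2 lay above the olfactory receptor 95th percentile, CCR10 and the scavenger receptor ACKR1. In limma 0 passed the adjusted threshold and 0 had an unadjusted p under 0.05. CCR10, the receptor of CCL28, had 6.62 and 6.60 in knockdown, against 6.56 and 6.58 in mock. CXCR2 had 3.72 and 4.10 in knockdown, against 3.86 and 4.13 in mock, and CXCR1 had 4.94 and 5.06 in knockdown, against 4.97 and 5.01 in mock. The 3 with the smallest p-values were CXCR4 (log2 change -0.23), CXCR6 (-0.096) and CCR6 (-0.099).

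Other chemokines, 29 measured of 32 listed, had a median log2 change of 0.00 and were mostly dim, with 5 above the olfactory receptor 95th percentile. In limma 0 passed, and 1 had an unadjusted p under 0.05, the monocyte attractant CCL7, with 3.24 and 3.15 in knockdown, against 3.51 and 3.71 in mock. CCL26 and CCL1 followed with changes of 0.17 and 0.19. The interferon-induced CXCL10 had a change of 0.024 and the monocyte attractant CCL2 one of -0.043, both at levels within the olfactory receptor range.

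Among the cytokines that induce these genes, 15 of 15 were measured and 0 passed in limma, with 1 at an unadjusted p under 0.05. That was IL18, a member of the interleukin-1 family, with 9.52 and 9.76 in knockdown, against 9.30 and 9.08 in mock (log2 change 0.45, adjusted p = 0.175). IL1A, a strong inducer of CXCL8, had 6.94 and 6.93 in knockdown, against 7.05 and 6.97 in mock. IL1B had a change of -0.082 and TNF one of 0.00.

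Of the receptors and adaptors for these cytokines 13 of 16 were measured, all 13 above the olfactory receptor 95th percentile. IL1RAP, the co-receptor of interleukin-1, rose. It had 8.07 and 8.07 in knockdown, against 7.41 and 7.45 in mock (log2 change 0.64, adjusted p = 0.0499), and was the 1 gene of the list past the threshold, which 0.403% of all genes passed. Its other 3 probe sets had changes of 0.40, 0.051 and -0.010, none past it. The call was lost with the replicate block and with any 1 array left out, where limma called 0 of all probe sets. IL1R1, the signalling receptor, had 7.21 and 7.31 in knockdown, against 6.69 and 6.42 in mock (0.71, adjusted p = 0.0787), and 0.14 at its other probe set. TRAF3IP2, the adaptor of the interleukin-17 receptor, had 0.33 at its brightest probe set and -0.39 at the other, which disagree in sign. Without adjustment, 4 genes of the list passed 0.05 as higher and 0 as lower, against 9.76% and 7.25% of all genes.

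NF-kB subunits and their kinases, 13 of 13 measured, had 7 positive and 6 negative changes. CHUK, the IKK-alpha kinase, fell. It had 8.51 and 8.63 in knockdown, against 9.32 and 9.26 in mock, at its single probe set (log2 change -0.72, adjusted p = 0.04996), a value just under the threshold, which 0.215% of all genes passed as lower. This call too was lost with the replicate block and with any 1 array left out. MAP3K8 was dim, with 5.54 and 5.85 in knockdown, against 5.11 and 4.97 in mock (log2 change 0.66, limma adjusted p = 0.106). That level lies at the 91.1st percentile of the olfactory receptor probe sets, and its other probe set had a change of 0.51. MAP3K14, the NF-kB-inducing kinase, had a change of 0.35 (0.127), with 0.023 at its second probe set. Without adjustment, 3 genes of the list passed 0.05 as higher and 2 as lower, against 9.76% and 7.25% of all genes. RELA, the subunit that drives CXCL8, had 10.23 and 10.17 in knockdown, against 10.24 and 10.25 in mock.

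Feedback genes and co-regulators of NF-kB, 9 of 10 measured, had a median log2 change of -0.028, and 0 passed the test in limma. An unadjusted p under 0.05 was reached by 2 of the 9, both higher, against 9.76% of all genes. They were BCL3, a nuclear co-regulator, at 0.32, and NFKBIA, the inhibitor of NF-kB, at 0.18. The other 3 probe sets of BCL3 had changes of 0.21, 0.094 and -0.021, none with an unadjusted p under 0.05. TNFAIP3, an inducible brake on the pathway, had 10.23 and 10.32 in knockdown, against 10.29 and 10.23 in mock, and NFKBIZ, a co-activator, had a change of -0.087.

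The mRNA decay list had 10 of 10 measured and 0 past the test in limma. An unadjusted p under 0.05 was reached by 3 of the 10, all higher, against 9.76% of all genes. They were ZFP36, ZFP36L1 and ZFP36L2, whose proteins bind AU-rich elements and promote decay. ZFP36L2 had 10.87 and 10.99 in knockdown, against 10.38 and 10.31 in mock (log2 change 0.59, adjusted p = 0.0643). Its other 3 probe sets had changes of 0.49, 0.63 and -0.090. ZFP36 had a change of 0.24 at its single probe set. The probe sets of ZFP36L1 disagreed in sign. The brightest had a change of 0.20 (unadjusted p = 0.0381 in limma), while 11726889_at had one of -0.38 (unadjusted p = 0.00968 in limma) and the other 4 ran from -0.11 to 0.059. The proteases that release CXCL16 from the membrane were measured at 3 of 3. ADAM17 had 10.18 and 10.14 in knockdown, against 9.77 and 9.68 in mock (0.44, adjusted p = 0.0935), and ADAM10 had 8.51 and 8.64 in knockdown, against 8.20 and 8.07 in mock (0.44, adjusted p = 0.117). The other 3 probe sets of ADAM10 each had a change of 0.37, while those of ADAM17 had changes of 0.35, 0.0011 and -0.031. ADAM9 had 12.45 and 12.56 in knockdown, against 12.47 and 12.42 in mock, at its brightest probe set. The groups overlapped there (log2 change 0.054), and its other probe sets had changes of 0.054, 0.24 and 0.23.

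**Figure D4:**
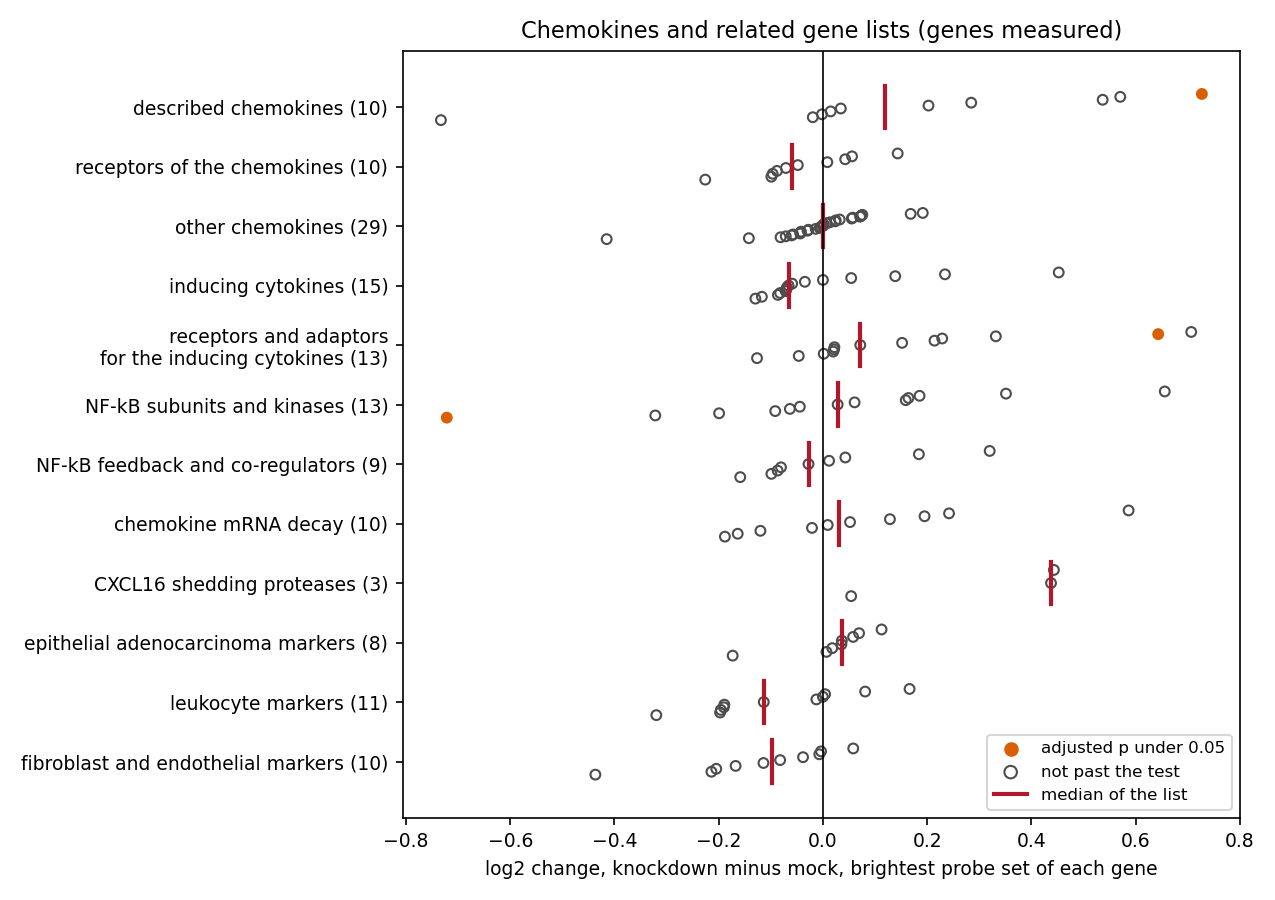
Log2 change, knockdown minus mock, of each gene at its brightest probe set (points), for the chemokines and 11 related lists (rows, with the number of genes measured); bars are list medians and filled points passed the adjusted threshold. CXCL1, IL1RAP and CHUK are the filled points.

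Markers of other cell types were measured beside these genes, and their part in the changes was not tested. Of 11 leukocyte markers 3 lay above the olfactory receptor 95th percentile, and of 10 fibroblast and endothelial markers 2 did. Of the leukocyte markers 2 had an unadjusted p under 0.05, both lower (7.25% of all genes), CD79A (-0.32) and CD14 (-0.20), and the median level of the list was 5.11 and 5.17 in knockdown, against 5.22 and 5.33 in mock. PTPRC, which marks all leukocytes, had 3.27 and 3.26 in knockdown, against 3.17 and 3.03 in mock, near the floor of the arrays. Of the fibroblast and endothelial markers 3 had such a p, all lower (again against 7.25%), DCN (-0.44), PECAM1 (-0.20) and CDH5 (-0.21). In limma 0 of both lists passed. The other probe sets of CD79A had changes of -0.030 and -0.048, while that of CD14 had one of -0.30. The other 3 probe sets of DCN had positive changes, of 0.080 to 0.20. Those of PECAM1 and CDH5 had changes of -0.33 and -0.15.

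The 3 genes whose centred 4-array profile lay closest to that of CXCL1, among 18122 other genes, were AKR1C3, an aldo-keto reductase, at a Euclidean distance of 0.064 log2 units, DDAH2, which degrades dimethylarginine, at 0.069, and the kinase gene PIM1 at 0.070. AKR1C3 had a log2 change of 0.71, DDAH2 of 0.66 and PIM1 of 0.67. With 4 arrays in 2 groups, closeness here means a similar change and similar replicates.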

How the data were processed

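RNA from OE33 cells was hybridised to 4 arrays, 2 per group, and groups and replicate numbers came from the sample labels. The table deposited by the authors holds 1 log2 value per probe set and array, and RMA and Partek are named in the submitters' processing notes with no version or role. RMA sets the probe signals of all arrays to a common distribution, so a change in total mRNA cannot be seen. It also understates changes of dim probe sets. The array medians of the deposited probe set values still ran from 5.89 (mock replicate 1) to 5.93 (mock replicate 2). The sources used here give no scan date.

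Of 49372 probe sets, 79 controls were left out. Of the 49293 tested, 44988 were paired with 1 gene by the platform annotation, 1832 with several genes and 2473 with no gene, and names were given to the 1-gene kind alone. No symbol changed on a check through the Entrez identifier against RefSeq (GRCh38.p14). Of the chemokines, 2 further probe sets were paired with several genes and were not used. A gene is represented by its brightest probe set, by the mean of the 4 arrays. Promoter sequences are from RefSeq, which had windows for 9 of the 10 genes, all but CXCL16.

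Knockdown was compared with mock by limma 3.58.1 (lmFit and eBayes, R 4.3.3), two-sided, unpaired, with Benjamini-Hochberg adjustment over the 49293 probe sets and a threshold of 0.05. Residual degrees of freedom numbered 2, and the prior added 3.62. Intervals are 95% confidence intervals of the fit. The number of arrays limits the precision. The genes, lists and tests were chosen with earlier results of these data known. Named genes were all 10 chemokines, ARID1A, up to 3 genes per related list with the smallest p, and the 3 closest to CXCL1. CXCR1, CXCR2, CCR10, CXCL10, CCL2, IL1A, IL1B, TNF, RELA, TNFAIP3, NFKBIZ, PTPRC, the other epithelial markers and the neighbours on chromosome 4 were named beside these for their known roles or position, after their values were seen. Alternatives tried were a replicate block, a crossed block, median centring, quantile normalization, a filter on dim probe sets, probe sets without _s_at or _x_at, an intensity trend, each array left out and the mean of a gene's probe sets.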

Additional observations from a re-analysis of the deposited data

How the results depend on the processing

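The counts of calls depended on the settings far more than the sizes of the changes did. Of 49293 probe sets 156 passed (74 higher, 82 lower), 671 with the arrays centred on their medians (403 and 268), 297 after quantile normalization, 3209 with an intensity trend (1928 and 1281), 2106 with the filter on dim probe sets (1274 and 832) and 23 with unshared probe sets (7 and 16). The 1 chemokine probe set became 7, 1, 8, 6 and 0 in those settings in the same order, and the 12 at an unadjusted p under 0.05 became 7 of 14 unshared ones. The centred fit called CCL28, CXCL1, CXCL6 and CXCL8, as did the trend. With the replicate block limma called 0 of all probe sets and 0 chemokine probe sets (5535 and 10 at an unadjusted p under 0.05), and the ARID1A change of -1.78 had an adjusted p of 0.217. The replicate differences of the groups correlated at -0.202, and a crossed replicate block, chosen after seeing the data, also gave 0 and 0 (9467 and 10 at an unadjusted p under 0.05). The labels do not say that equal numbers share a culture. With any 1 array left out limma called 0 of all and 0 of the chemokine probe sets (4531 to 6814 and 8 to 10 at an unadjusted p under 0.05), with ARID1A at -1.80 to -1.75. The lone array of a group is then assumed to vary like the others. Fewer degrees of freedom were left in these fits. The median change of the 10 genes, 0.12, was 0.10 after quantile normalization, 0.16 with unshared probe sets, 0.14 with the mean of a gene's probe sets, 0.41 over the 6 genes left by the dim filter and 0.12 to 0.18 with 1 array left out, the highest without knockdown replicate 2. The causes were not tested. Of the 6 genes left by the dim filter, CCL28 passed it only through its knockdown arrays. Changes stayed positive in 11 of 11 alternatives for CXCL1 (0.46 to 0.75), CXCL2 (0.16 to 0.25), CXCL3 (0.24 to 0.33), CXCL8 (0.52 to 0.77) and CCL28 (0.52 to 0.65). They stayed negative in 10 of 10 for CXCL6 (-0.88 to -0.37). Many of these signs were fixed in advance, so the counts do not measure robustness. The replicate block, the dim filter and the intensity trend cannot alter the change of a probe set. Leaving out 1 array cannot turn its sign where the groups do not overlap. Changes near 0 turned sign. CXCL14 was 0.00086 when centred, 0.021 after quantile normalization, 0.038 without knockdown replicate 1 and 0.064 without mock replicate 2. CXCL5 was 0.18 with knockdown replicate 1 left out and 0.039 without mock replicate 1, CXCL16 was -0.051 without knockdown replicate 1, and CCL20 was -0.0076 without mock replicate 2. With 1 array left out, CXCL5 ran from -0.22 to 0.18 and CXCL14 from -0.068 to 0.064.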
